A study of Homo sapiens with 179 samples.

Results

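H1 is an established human embryonic stem cell line, and the comparison described here sets its H1p43 RNA-seq libraries against its H1p16 libraries. The members were chosen by their column names in the deposited expected-count and TPM tables, replicates 1 to 3 of each group. They are 6 of the 179 libraries of the series; the other libraries were made with another protocol, LM-Seq, and were not used here. In all 6, the cells grew on plates coated with Matrigel, an extracellular matrix preparation, in the defined medium E8, and no other agent is named. RNA was taken from cells lysed on the plate, libraries were made with the TruSeq RNA Sample Prep Kit v2, and 12 samples shared a lane of a HiSeq2500 sequencer. The sources used here do not explain the letter p or its number, so H1p16 and H1p43 are used only as names. No label ties the replicates to separate cultures, and every p-value below therefore reflects the spread among 3 libraries a group, which could be purely technical.

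Embryonic stem cells can renew without limit and form every tissue of the body, and a small network of transcription factors around POU5F1, NANOG and SOX2 keeps them in that state. They divide fast, make much protein, burn glucose largely to lactate, and depend on methionine and one-carbon metabolism to supply the methyl groups of their chromatin. In a bulk sample, fewer cells of a type and less RNA per cell cannot be told apart.

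The libraries held 23680509 to 30628671 counts in H1p16 and 29018110 to 35852620 in H1p43. At 1 TPM (a level corrected for transcript length and library total) or more, H1p16 libraries had 12745 to 12804 genes and H1p43 libraries 13181 to 13199. Markers of the labelled cell type were present in both groups. The 20 pluripotent stem cell markers summed to 10103 to 10381 TPM in H1p16 and 8308 to 8350 TPM in H1p43. POU5F1 stood at 3297, 3169 and 3108 TPM in H1p16 and 3086, 3065 and 3061 TPM in H1p43. Its log2 fold change was -0.17 ± 0.02 (± SE, as throughout), and TPM did not overlap between groups. Of 19 tested markers 3 were higher, the nodal antagonists LEFTY1 and LEFTY2 and the telomerase subunit TERT, and 15 were lower, down to -1.42 for the TGF-beta family ligand GDF3.

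Changes were measured for 14574 of 19084 genes, those with enough counts for edgeR's quasi-likelihood test. Genes with a p below 0.05 after Benjamini-Hochberg adjustment were called, and a log2 fold change is positive where H1p43 is higher. In all, 71.8% of genes were called, 36.4% higher and 35.4% lower, so a count of called members means little unless it departs from these shares. With limma on log2(TPM + 1), restricted to genes averaging 1 TPM or more, 64.2% of called genes were higher, against 50.7% in edgeR. Of all genes tested with it, 47.1% were higher and 26.3% lower, at a median of 0.09. On this TPM scale a gene lay a median of 0.11 log2 units higher than in edgeR, which also rescales each library by its bulk of genes (normalization factors of 0.957 to 0.959 in H1p16 and 1.043 to 1.044 in H1p43). Changes below are edgeR's unless the TPM scale is named, and a list's split on the TPM scale follows its counts where it moves the share of higher calls by more than 10 percentage points.

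Most changes were small. Of the genes higher in H1p43, 1365 rose by less than 1.2-fold, 1867 by 1.2 to 1.5-fold, 1244 by 1.5 to 2-fold, 741 by 2 to 4-fold and 88 by 4-fold or more. Of the genes lower in H1p43, 2101 fell by less than 1.2-fold, 2170 by 1.2 to 1.5-fold, 652 by 1.5 to 2-fold, 198 by 2 to 4-fold and 34 by 4-fold or more. Below 2-fold, 4476 genes were called higher and 4923 lower, but on the TPM scale 5850 were higher and 3372 lower, so the direction of the small changes depends on the scale. Large changes leaned higher: 5.69% of tested genes rose and 1.59% fell by at least 2-fold, 7.28% together. The lean lay in genes with a mean below 20 TPM. Below 1 TPM, 333 genes rose and 90 fell by at least 2-fold, and from 1 to 5 TPM 337 rose and 67 fell. More also rose than fell from 5 to 20 TPM. From 20 to 100 TPM, 25 rose and 23 fell by this much. From 100 to 500 TPM 1 rose and 6 fell, and at 500 TPM or more 0 rose and 3 fell. With a fold of at least 2, the count moved from 1061 genes in edgeR to 333 on the TPM scale, where the added 1 compresses changes of low genes. TPM values did not overlap between groups for 73.7% of tested genes. Among genes called with less than 1.2-fold change, this held for 99.3% of those that rose and 41.6% of those that fell. The rule for naming list members by size of change required it, so in those genes a lack of overlap adds no support.

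**Figure D1:**
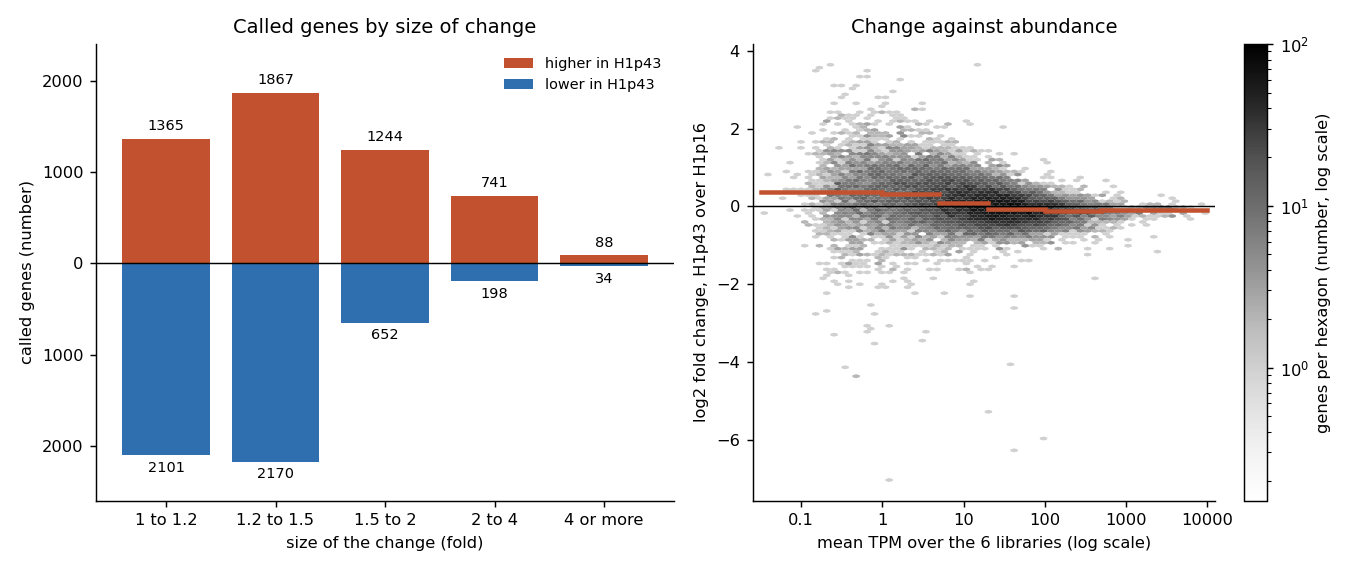
Left, number of called genes by size of change, with genes higher in H1p43 above the line and genes lower below it; right, log2 fold change (H1p43 over H1p16) against mean TPM of each tested gene, with shading for the number of genes and red lines for the median of each abundance class. The median declines from 0.37 below 1 TPM to -0.10 at 500 TPM or more.

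Abundance went with direction. The median log2 fold change was 0.37 for the 1568 tested genes with a mean below 1 TPM, 0.31 from 1 to 5 TPM, 0.07 from 5 to 20 TPM, -0.08 from 20 to 100 TPM, -0.13 from 100 to 500 TPM and -0.10 for the 274 genes at 500 TPM or more. Between 1 and 5 TPM, 50.4% of genes were higher and 15.7% lower. At 500 TPM or more, 9.12% were higher and 68.6% lower. On the TPM scale the shares were 56.9% and 11.1% between 1 and 5 TPM and 34.7% and 36.1% at 500 TPM or more, so abundant genes were then about evenly divided. From a group mean below 1 TPM to one of at least 1 TPM, 508 genes crossed toward H1p43 and 98 the other way. Genes below 1 TPM enter the test only with enough counts in at least 3 libraries, so these shares describe the genes that passed. Across 23 chromosomes the median lay between -0.03 and 0.10, a narrower range than across abundance.

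The most abundant genes of each size class gave the large changes their names. Among genes that rose by 2 to 4-fold was CSTF3, a subunit of the factor that stimulates pre-mRNA cleavage before polyadenylation. CSTF3 stood at 56.7, 56.7 and 58.4 TPM in H1p16 and 121.8, 113.8 and 118.2 TPM in H1p43. Its log2 fold change was 1.203 ± 0.04. The mean effective transcript length implied by counts and TPM was 1.21 times as long in H1p43 as in H1p16, so its estimated isoforms differed too. The edgeR value and its size class rest on counts, which are not corrected for that length. Between 1.5 and 2-fold, the most abundant riser was EIF4A2, an RNA helicase of translation initiation, at 372, 369.7 and 388 TPM in H1p16 and 655, 654 and 655 TPM in H1p43. MYL9, a myosin light chain of contractile cells, followed with 197, 191 and 189 TPM in H1p16 and 349, 336 and 339 TPM in H1p43. All H1p43 values of these 3 genes lay above all H1p16 values. Among genes that fell by 1.5 to 2-fold, the most abundant was MTRNR2L2 (-0.76), a nuclear near-copy of mitochondrial ribosomal RNA, for which the division of reads between copies is uncertain. The most abundant genes that fell by 1.2 to 1.5-fold were the glycolytic enzyme GAPDH (-0.31), the chromatin protein HMGA1 (-0.28) and the tubulin TUBB (-0.27).

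The abundant end of the transcriptome moved little, and its direction depended on the scale. Of the 100 most abundant genes, which made up 31.8% to 32.3% of TPM in every library, 5 were higher and 61 lower, with a median of -0.07 against 0.01 for all genes. On the TPM scale 41 were higher and 23 lower, at a median of 0.04. In edgeR, cytosolic ribosomal proteins were 65 of the 100; 3 were higher and 36 lower, at a median of -0.06. The other 35 had a median of -0.18, with 2 higher and 25 lower. The higher ones were TMSB4X, the actin-sequestering thymosin beta-4 (0.25 ± 0.03), and ACTG1, a cytoplasmic actin (0.24 ± 0.02). HSPA8, a constitutive chaperone, stood at 3386, 3455 and 3488 TPM in H1p16 and 1664, 1669 and 1670.5 TPM in H1p43. It was the only one of the 100 past 2-fold, at -1.16 ± 0.02. Next came MTRNR2L2, named above, then NCL, a nucleolar protein of ribosome assembly (-0.47), EIF4A1, the main helicase of translation initiation (-0.37), and RAN, the GTPase of nuclear transport (-0.32). EIF4A1 and its paralog EIF4A2 thus moved in opposite directions, and H1p43 had less of the former and more of the latter in every library.

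A gene was counted as constant where the 95% interval of its fold change lay within 10% of no change, a statement on size and not a missed test. By that measure 8.4% of tested genes, 1224, were constant, of which 1071 were also not called. Another 3043 genes were neither called nor bounded within 10%, so a missing call alone seldom showed a constant gene. Precision rose with abundance, and the constant share went from 13.6% at 20 to 100 TPM to 36.5% at 500 TPM or more. Of the 65 ribosomal proteins above, 47 were constant, against 10 of the other 35 genes. EEF1A1, the elongation factor that brings aminoacyl-tRNA to the ribosome, stood at 8216, 8196 and 8515 TPM in H1p16 and 9062, 9070.3 and 9157 TPM in H1p43, a log2 fold change of 0.02 ± 0.01 in edgeR. The cytoplasmic actin ACTB stood at 6382, 6137 and 5974 TPM in H1p16 and 6808, 6618 and 6717 TPM in H1p43, with a log2 fold change of 0.01 ± 0.02. In TPM both lay higher in all H1p43 libraries, by the offset between the scales given above, and limma on the TPM scale called both. In edgeR, EEF1A1 was called without H1p16 replicate 3 (0.04) and ACTB without H1p16 replicate 1 (0.03). Constancy is therefore relative to the edgeR normalization: of the 1224 genes, 255 were also within 10% on the TPM scale.

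Transcripts of the translation machinery often begin with a cytosine followed by a run of pyrimidines, an oligopyrimidine start through which growth signals control their translation. RefSeq's promoter sequences on GRCh38.p14 gave a start for 11826 tested genes. An oligopyrimidine start, here C at the first transcribed base and C or T at the next 4, was found in 5.25% of them and in 4.07% of all 35116 starts. Among constant genes it was found in 10.1%. At 500 TPM or more, 40 of 68 genes with such a start were constant (58.8%), against 44 of 160 without (27.5%). Such a match is a description of the sequence only. The following 5 constant genes show it in 65 bases each, 50 before the start and 15 from it, in lower case with the pyrimidine run from the start in capitals. Each is written 5′ to 3′ on the gene's strand, with EEF1A1 at chr6:73521018-73521082 (minus strand), RPLP1 at chr15:69452768-69452832 (plus strand), RPS18 at chr6:33272025-33272089 (plus strand), RPL7A at chr9:133348168-133348232 (plus strand) and RPS25 at chr11:119018329-119018393 (minus strand).
EEF1A1: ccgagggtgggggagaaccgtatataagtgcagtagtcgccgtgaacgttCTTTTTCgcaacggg
RPLP1: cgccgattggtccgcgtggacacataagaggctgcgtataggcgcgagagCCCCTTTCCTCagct
RPS18: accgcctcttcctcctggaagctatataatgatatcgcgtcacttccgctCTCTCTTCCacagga
RPL7A: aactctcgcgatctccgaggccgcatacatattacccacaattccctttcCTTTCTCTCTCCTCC
RPS25: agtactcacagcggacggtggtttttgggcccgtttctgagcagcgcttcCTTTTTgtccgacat
The levels of the ribosomal genes were of one order. RPLP1, a stalk protein, stood at 5407, 5371 and 5139.5 TPM in H1p16 and 5686, 5710.0 and 5609 TPM in H1p43, with a log2 fold change of -0.01 ± 0.02. RPS18 of the small subunit stood at 4870.5, 5092 and 5290.2 TPM in H1p16 and 5223, 5423 and 5240.1 TPM in H1p43, with -0.05 ± 0.03, and its groups overlapped. RPL7A of the large subunit had a log2 fold change of -0.03 ± 0.02 and RPS25 one of -0.02 ± 0.02. None of these was called in edgeR over all libraries. Without H1p16 replicate 1, RPS18 (-0.09), RPL7A (-0.05) and RPS25 (-0.05) were called, as were RPLP1 (-0.04) without H1p16 replicate 3 and RPS18 (-0.07) without H1p43 replicate 2. On the TPM scale the values of RPLP1, RPL7A and RPS25 were called on the other side of 0, at 0.10, 0.08 and 0.09. Reads of these genes may be shared with their processed pseudogenes.

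Genes commonly used as references for quantitative PCR were constant about as often as other genes of their level. Of 23 tested, 5 were constant (21.7%), at a median level of 181 TPM. Of all genes from 100 to 500 TPM, 21.7% were constant. In direction 5 of the 23 were higher and 13 lower, at a median of -0.11. On the TPM scale the median was -0.002, with 8 higher and 9 lower. TFRC, the transferrin receptor, stood at 31.7, 32.1 and 36.8 TPM in H1p16 and 63.7, 64.4 and 65.8 TPM in H1p43, a log2 fold change of 0.84 ± 0.04. All its H1p43 values lay above all its H1p16 values. SDHA of respiratory complex II (0.28) was also higher. The topoisomerase TOP1 (-0.47), the RNA polymerase II subunit POLR2A (-0.36), GAPDH (-0.31), the prolyl isomerase PPIA (-0.26), YWHAZ (-0.19) and UBE2D2 (-0.18) were lower. The TATA-binding protein TBP (-0.11 ± 0.05) and the lysosomal enzyme GUSB (-0.06 ± 0.04) were not called, and their groups overlapped; TBP was called without H1p16 replicate 3 (-0.14) or H1p43 replicate 3 (-0.16). Of 11 tested genes from a published list of stably expressed genes, C1orf43 was higher (0.33 ± 0.03) and 7 were lower, down to -0.53 ± 0.04 for C15orf24; on the TPM scale 3 were higher and 7 lower.

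**Figure D2:**
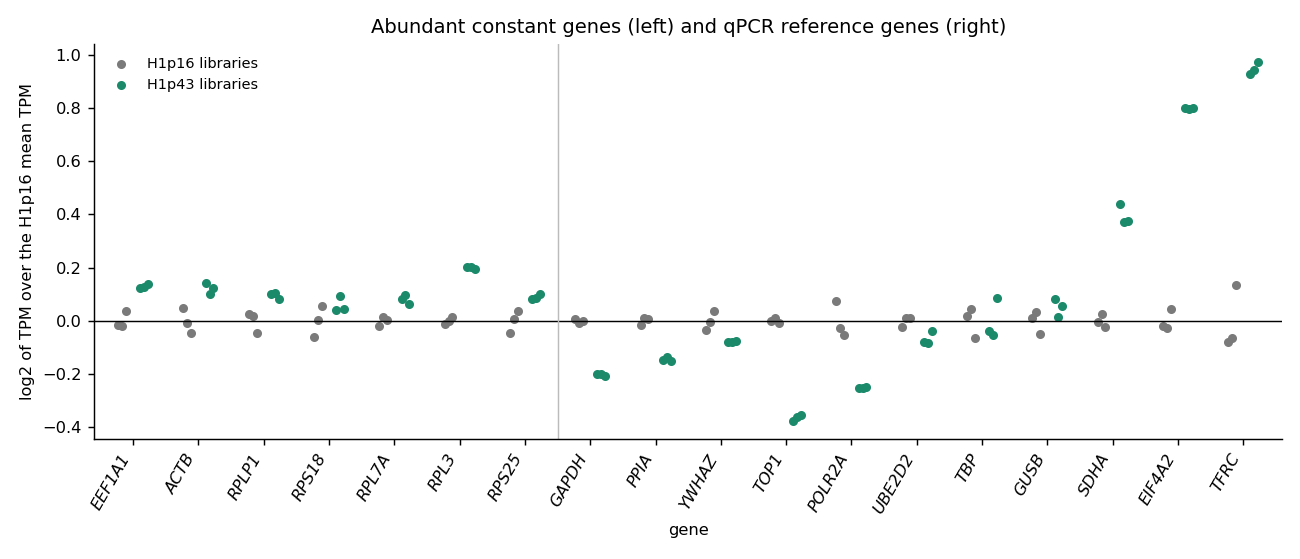
TPM of each of the 6 libraries, as log2 of its ratio to the H1p16 mean of the gene, for 7 abundant constant genes (left of the line) and 11 reference genes (right); grey points are H1p16 libraries and green points H1p43 libraries. EEF1A1 and ACTB lie slightly above 0 in H1p43 on this TPM scale, while TFRC lies highest of the genes shown.

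Transcription factors as a class leaned lower. Of 1077 in the lists, 881 were tested, 269 were higher (30.5%) and 334 lower (37.9%), at a median of -0.05. Of all genes 36.4% were higher and 35.4% lower. On the TPM scale 290 of 775 were higher (37.4%) and 240 lower (31%), against 47.1% and 26.3% of all genes. The balance thus turned with the scale, but the share of higher factors lay below that of all genes on both. Their families differed more than the class did. Among factors of the pluripotent state, NANOG (-0.24), SOX2 (-0.29) and SALL4 (-0.61) fell. Of POU genes 4 of 10 tested were higher and 2 lower, and of SOX genes 7 of 15 were higher and 4 lower. POU3F1, a POU factor of epiblast and neural progenitors, stood at 14.3, 14.7 and 12.4 TPM in H1p16 and 32.2, 30.3 and 30.97 TPM in H1p43. SOX3, the close relative of SOX2, stood at 23.7, 21.3 and 18.9 TPM in H1p16 and 49.1, 46.7 and 45.6 TPM in H1p43. ZIC2, a zinc finger factor of the neural plate, stood at 115.7, 110.4 and 104.6 TPM in H1p16 and 170.4, 169.6 and 172.3 TPM in H1p43. Their log2 fold changes were 1.06 ± 0.05, 1.04 ± 0.06 and 0.52 ± 0.03, and none of them overlapped between groups. SOX11 (-0.33) and SOX13 (-0.37) fell.

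Hedgehog and Wnt effectors with their relatives, the LEF/TCF, GLI, ZIC and SALL genes, had 4 of 17 tested members higher and 11 lower, at a median of -0.22. GLI1 and GLI2, activators at the end of the hedgehog pathway, fell alike, at -0.76 ± 0.05 and -0.76 ± 0.04, while GLI3, which also yields a repressor, rose by 0.20. SALL3 (-0.74) and SALL2 (-0.24) fell. Of the E2F and DP factors of the cell cycle, none of 10 tested rose and 7 fell, by 0.07 to 0.49; E2F7 (-0.49) and E2F8 (-0.30), the repressor members, fell most. On the TPM scale, 4 of the 10 were lower.

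In the basic helix-loop-helix family, 23 of 65 tested genes were higher and 28 lower (23 and 18 on the TPM scale), with changes of at least 2-fold in both directions. Members of the MYC and MAX network moved apart. MYCN, the MYC gene of stem cells and neural progenitors, stood at 155.4, 146.7 and 139.4 TPM in H1p16 and 99.4, 98.7 and 98.4 TPM in H1p43, and MNT, a repressor that competes for MAX, fell with it (-0.74). MYCL1 stood at 13.3, 12.8 and 13.4 TPM in H1p16 and 32.05, 33.4 and 32.5 TPM in H1p43, and MXI1, another repressor of the network, at 4.66, 4.36 and 5.09 TPM in H1p16 and 11.4, 11.7 and 11.8 TPM in H1p43. MLXIPL, a glucose-sensing factor of the same wider network, stood at 1.62, 1.59 and 1.66 TPM in H1p16 and 5.45, 5.90 and 6.05 TPM in H1p43. The log2 fold changes were -0.68 ± 0.03 for MYCN, 1.22 ± 0.04 for MYCL1, 1.203 ± 0.07 for MXI1 and 1.73 ± 0.10 for MLXIPL, with no overlap between groups. By mean TPM, MYCN remained more abundant than MYCL1 in both groups. TCF15, a factor of somites and epiblast, rose by 1.12. MGA, the T-box protein that also binds MAX, fell (-0.86), as did TFE3 (-0.68) and the inhibitor ID3 (-0.38). HES3, a repressor of the HES family, fell most among members of at least 5 TPM, from 74.5, 79.3 and 66.8 TPM in H1p16 to 14.6, 17.2 and 15.99 TPM in H1p43.

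In the bZIP family, 17 of 50 tested members were higher and 17 lower (22 and 13 on the TPM scale). The immediate-early AP-1 genes were lower: FOS stood at 15.5, 15.9 and 16.2 TPM in H1p16 and 6.26, 6.05 and 5.04 TPM in H1p43. JUN stood at 12.1, 12.5 and 10.1 TPM in H1p16 and 5.50, 5.40 and 5.49 TPM in H1p43. The AP-1 member FOSL1 followed at -1.17 ± 0.11, after -1.57 ± 0.08 for FOS and -1.19 ± 0.08 for JUN. The AP-1 antagonist JDP2 (1.049 ± 0.06) and JUND (0.48 ± 0.05) were higher, so that AP-1 genes did not move as a block. ATF5 fell, from 46.7, 43.2 and 44.4 TPM in H1p16 to 20.1, 20.01 and 21.7 TPM in H1p43. ATF4, the activator of the amino acid response and the most abundant bZIP gene, rose by 0.21. The orphan nuclear receptor NR4A1, also an immediate-early gene, rose, from 7.96, 8.60 and 9.16 TPM in H1p16 to 20.9, 21.4 and 19.5 TPM in H1p43 (1.15 ± 0.06). It rose most among nuclear receptors of at least 5 TPM. Of that family 16 of 36 tested were higher and 6 lower (12 and 2 on the TPM scale), with PPARD (0.36) among the higher.

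Of the ETS family, SPIB, a factor known from lymphoid cells, stood at 19.7, 19.5 and 18.1 TPM in H1p16 and 4.41, 4.14 and 4.22 TPM in H1p43 (-2.27 ± 0.06). ERF, an ETS repressor downstream of ERK (-0.74), ETV6 (-0.56) and ETV4 (-0.40) also fell. NFKB2, the precursor of the noncanonical NF-kappa-B subunit, rose by 1.07. The TEAD factors of the Hippo pathway diverged. TEAD4 stood at 141.6, 130.2 and 132.6 TPM in H1p16 and 84.4, 86.8 and 84.8 TPM in H1p43. TEAD1 stood at 14.2, 14.3 and 14.9 TPM in H1p16 and 26.3, 26.6 and 27.5 TPM in H1p43. The changes were -0.77 ± 0.03 and 0.78 ± 0.03, and TEAD2, the most abundant, fell by 0.36 on the log2 scale. Of homeodomain genes outside HOX and POU, 27 of 63 tested were higher and 21 lower; HMX2 rose by 1.42 and HESX1, a repressor of the early forebrain and pituitary, went from 12.4, 15.1 and 17.3 TPM in H1p16 to 5.68, 5.61 and 6.05 TPM in H1p43.

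Numbered zinc finger genes, mostly KRAB repressors, made up 479 of the 881 tested factors. Of these 25.7% were higher and 40.5% lower, at a median of -0.09, but at 0.02 on the TPM scale, with 33.4% higher and 31.7% lower of 458. The sign of this median therefore depends on the scale. All genes moved with the scale too, from a median of 0.01 in edgeR to 0.09 on the TPM scale. There 47.1% of all genes were higher and 26.3% lower. Against all genes, the family lay lower on both scales. Single members moved clearly on either scale. ZNF518B stood at 1.11, 1.32 and 1.49 TPM in H1p16 and 6.38, 6.27 and 5.73 TPM in H1p43. ZNF462 stood at 23.8, 22.9 and 21.8 TPM in H1p16 and 11.46, 11.2 and 11.8 TPM in H1p43. ZBTB2 stood at 42.05, 39.6 and 41.7 TPM in H1p16 and 20.3, 19.01 and 20.9 TPM in H1p43. The changes were 2.10 ± 0.09, -1.10 ± 0.04 and -1.14 ± 0.04. ZNF251 (1.52) and ZNF143, a promoter activator (0.88), rose, and ZNF296 (-1.15) and ZSCAN10, a factor of stem cells (-0.60), fell. The highest adjusted p among the transcription factors named with a value, apart from those not called, was 0.0015 for GLI3 in edgeR's quasi-likelihood test.

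**Figure D3:**
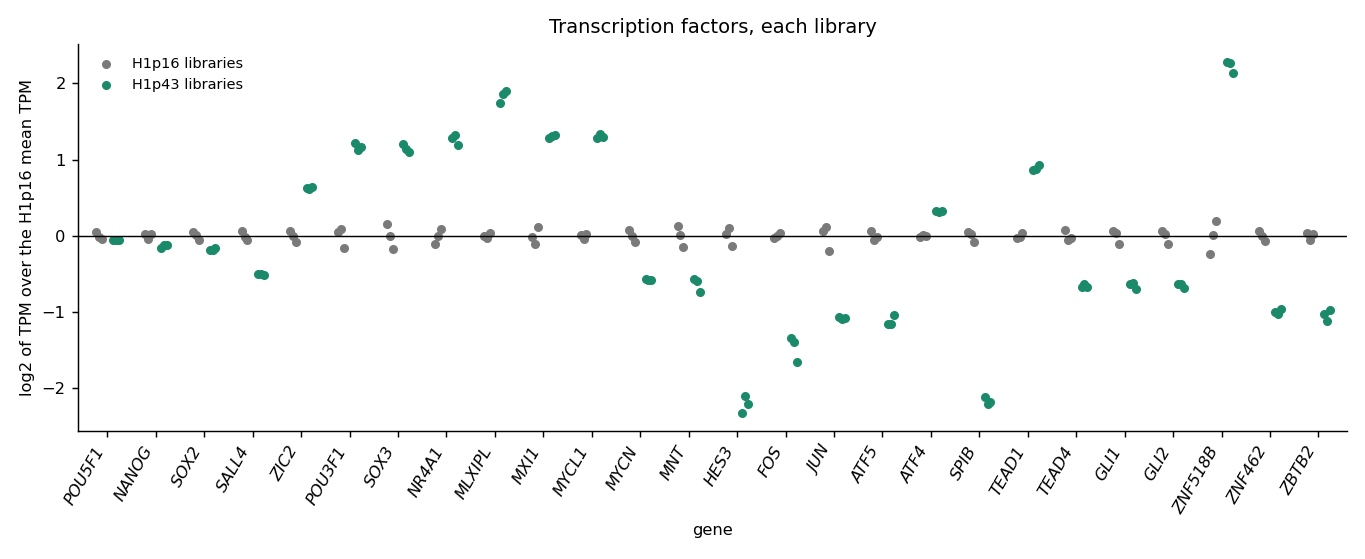
TPM of each of the 6 libraries, as log2 of its ratio to the H1p16 mean of the gene, for 26 transcription factors; grey points are H1p16 libraries and green points H1p43 libraries. HES3 and SPIB lie lowest and ZNF518B highest in H1p43, and the libraries of a group lie close together.

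The TATA box, a core promoter element known from inducible genes, was counted in the same promoters. The letters TATAAA, on the gene's strand in the window from 40 to 16 bases before the start, were found in 1.9% of the 11826 tested genes with a RefSeq start and in 2.3% of all starts. The share was 7.82% of the 179 genes lower by at least 2-fold (14 genes) and 2.94% of the 613 higher by at least 2-fold (18 genes). It was 22.2% of those lower by at least 4-fold, 6 of 27. By abundance it was 3.7% below 1 TPM and 6.14% at 500 TPM or more. No test was run on these shares, and a match is not a site shown to work. HES3, SPIB, FOS and the methionine enzyme MAT2A, described further on, all fell by at least 2-fold and hold the motif, shown in capitals in the 50 bases before and 15 from the start. They lie at chr1:6244129-6244193 (plus strand), chr19:50418888-50418952 (plus strand), chr14:75278778-75278842 (plus strand) and chr2:85539118-85539182 (plus strand) on GRCh38.p14.
HES3: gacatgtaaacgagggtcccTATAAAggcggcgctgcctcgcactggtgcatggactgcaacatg
SPIB: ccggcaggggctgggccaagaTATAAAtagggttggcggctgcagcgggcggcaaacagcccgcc
FOS: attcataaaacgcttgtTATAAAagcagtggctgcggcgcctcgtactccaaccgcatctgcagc
MAT2A: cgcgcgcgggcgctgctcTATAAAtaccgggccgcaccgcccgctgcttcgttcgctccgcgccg
The motif ends 24 to 28 bases before the start in these 4 genes.

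Receptors leaned higher. Of 600 in the lists 402 were tested, 175 were higher and 83 lower, at a median of 0.18; on the TPM scale 52% of 277 were higher and 16.6% lower. Most are genes of low level, and low genes in general were higher. From 1 to 5 TPM, 50.4% of receptors were higher and 14.2% lower, against 50.4% and 15.7% of all genes of that level. From 20 to 100 TPM, 32.8% were higher and 50.7% lower, against 29.3% and 49.1%. In these ranges the class was close to other genes of its level. From 5 to 20 TPM, however, 50% of receptors were higher and 17.9% lower, against 43.6% and 30.2%, and below 1 TPM the receptor median was 0.53 against 0.37. These differences were not tested.

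Of the tested G protein-coupled receptors, 72 were higher and 27 lower (45.6% and 17.1%), at a median of 0.30. GPR37, an orphan receptor of the nervous system, stood at 4.48, 4.84 and 4.68 TPM in H1p16 and 10.8, 10.3 and 10.2 TPM in H1p43. GPR173 (1.29) and GPR153 (1.2) also rose, and the neuropeptide Y receptor NPY1R (-0.83) and GPR64 (-0.66) fell. GPR176, the most abundant, rose by only 0.11. Receptors that steer axons and vessels, the plexins, neuropilins, robo and unc5 proteins, had 14 of 20 tested members higher and 5 lower (11 and 2 on the TPM scale), at a median of 0.38. The semaphorin receptor PLXNA1 stood at 29.2, 28.6 and 27.6 TPM in H1p16 and 47.99, 46.4 and 46.96 TPM in H1p43. The netrin receptor UNC5B stood at 29.7, 29.5 and 28.4 TPM in H1p16 and 20.3, 19.3 and 19.3 TPM in H1p43. ROBO3 (1.21) and PLXND1 (0.61) rose with PLXNA1 (0.62), and PLXNB1 (-0.43) fell with UNC5B (-0.68). Integrins, the receptors for matrix, had 10 of 18 higher and 3 lower (10 and 1 on the TPM scale), ITGA5 by 0.35.

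Growth factor receptors were divided. Of receptor tyrosine kinases 21 of 48 tested were higher and 12 lower (19 and 6 on the TPM scale). KDR, the VEGF receptor, stood at 76.05, 72.5 and 73.95 TPM in H1p16 and 40.8, 40.9 and 40.3 TPM in H1p43 (-0.98 ± 0.03). FGFR3 stood at 6.77, 5.97 and 5.60 TPM in H1p16 and 11.8, 11.96 and 11.4 TPM in H1p43 (0.83 ± 0.06). EPHA8 (1.104) and PDGFRB (0.80) rose, and ERBB3 (-0.55) and EPHB4 (-0.52) fell. Of TGF-beta family receptors 5 of 14 were higher and 6 lower. ACVR1B, a receptor for activin and nodal, rose by 0.42, as did the coreceptor ENG (0.72), while the BMP receptor BMPR1A fell (-0.30). Among Wnt and hedgehog receptors FZD2 went from 11.02, 9.52 and 9.35 TPM in H1p16 to 22.3, 21.4 and 21.97 TPM in H1p43, and FZD4 rose as well (0.74). FZD7, the most abundant frizzled of these cells, fell (-0.39), as did SMO, the hedgehog transducer (-0.39), in the same direction as GLI1 and GLI2. The erythropoietin receptor EPOR rose by 1.01, and TNFRSF8, or CD30, a known antigen of cultured stem cells, fell (-0.78 ± 0.04) together with TNFRSF1A (-0.62).

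Ion channels leaned higher, as did low genes in general. Of potassium channels 37 of 66 tested were higher and 11 lower, at a median of 0.57, and on the TPM scale 25 of 38 were higher and 6 lower. Of sodium, calcium and TRP channels 25 of 51 were higher and 10 lower, at a median of 0.37. Their shares (49% and 19.6%, at a median level of 1.7 TPM) were close to those of all genes from 1 to 5 TPM (50.4% and 15.7%). The shares of potassium channels were 56.1% and 16.7%, at a median level of 1.24 TPM. These differences were not tested. CACNG7, an auxiliary subunit of calcium channels and AMPA receptors, stood at 54.1, 52.8 and 49.1 TPM in H1p16 and 86.2, 82.9 and 84.1 TPM in H1p43. CACNA1H, a low-voltage calcium channel, stood at 14.8, 14.1 and 13.3 TPM in H1p16 and 23.9, 23.1 and 23.9 TPM in H1p43. For both the groups did not overlap (0.59 ± 0.04 and 0.64 ± 0.04). KCNAB2 (1.21), KCNIP2 (0.94), CACNB3 (0.85) and CACNA2D2 (0.76) rose as well, while KCNK5 (-0.35) and CACNB1 (-0.67) fell. Of ligand-gated channels 20 of 52 were higher and 6 lower; the GABA receptor subunit GABRP (1.196) and the NMDA receptor subunit GRIN2D (0.55) rose. Channels and transporters together had 59.4% higher and 19.8% lower from 1 to 5 TPM, against the 50.4% and 15.7% of all genes of that level, and 30.2% and 50% from 20 to 100 TPM, against 29.3% and 49.1%.

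Neural markers moved in the same libraries. Of 21 listed, 16 were tested, 8 were higher and 5 lower, at a median of 0.36, and the summed level of the list was 435 to 470 TPM in H1p16 and 398 to 402 TPM in H1p43. The microtubule protein MAP2 (1.45 ± 0.07) and the neuronal RNA-binding protein RBFOX3 (1.08 ± 0.05) rose, while the filament genes NEFM (-0.64) and NES (-0.37) and the tubulin TUBB3 (-0.42) fell. SOX1 was at most 0.11 TPM and NEUROD1 at most 0.02 TPM in every library. The part of these genes in the changes of channels and receptors was not tested.

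Transporters were more even. Of solute carriers outside the mitochondrial family 95 of 230 tested were higher and 79 lower (98 and 47 on the TPM scale). SLC38A4, an amino acid transporter, stood at 11.7, 12.3 and 14.3 TPM in H1p16 and 31.02, 32.5 and 29.6 TPM in H1p43. SLC20A1, a phosphate transporter, stood at 114.7, 112.6 and 114.8 TPM in H1p16 and 64.1, 65.5 and 65.1 TPM in H1p43. SLC48A1, a heme transporter, stood at 4.73, 4.54 and 4.47 TPM in H1p16 and 12.4, 12.03 and 11.9 TPM in H1p43. The changes were 1.16 ± 0.06, -0.92 ± 0.03 and 1.30 ± 0.07. The glucose transporter SLC2A12 rose (1.5), and SLC16A9 (-1.002) and the zinc exporter SLC30A1 (-0.78) fell. SLC3A2, the heavy chain of amino acid exchangers and the most abundant carrier named here, rose by 0.10. Of ABC transporters 16 of 33 were higher and 9 lower. The cholesterol exporters ABCG1 (0.86) and ABCA1 (-0.77) moved in opposite directions. ABCA2 rose (0.98) and ABCC9 fell (-0.84). The highest adjusted p among the receptors, channels and transporters named with a value was 0.0011 for GPR176 in edgeR's quasi-likelihood test.

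**Figure D4:**
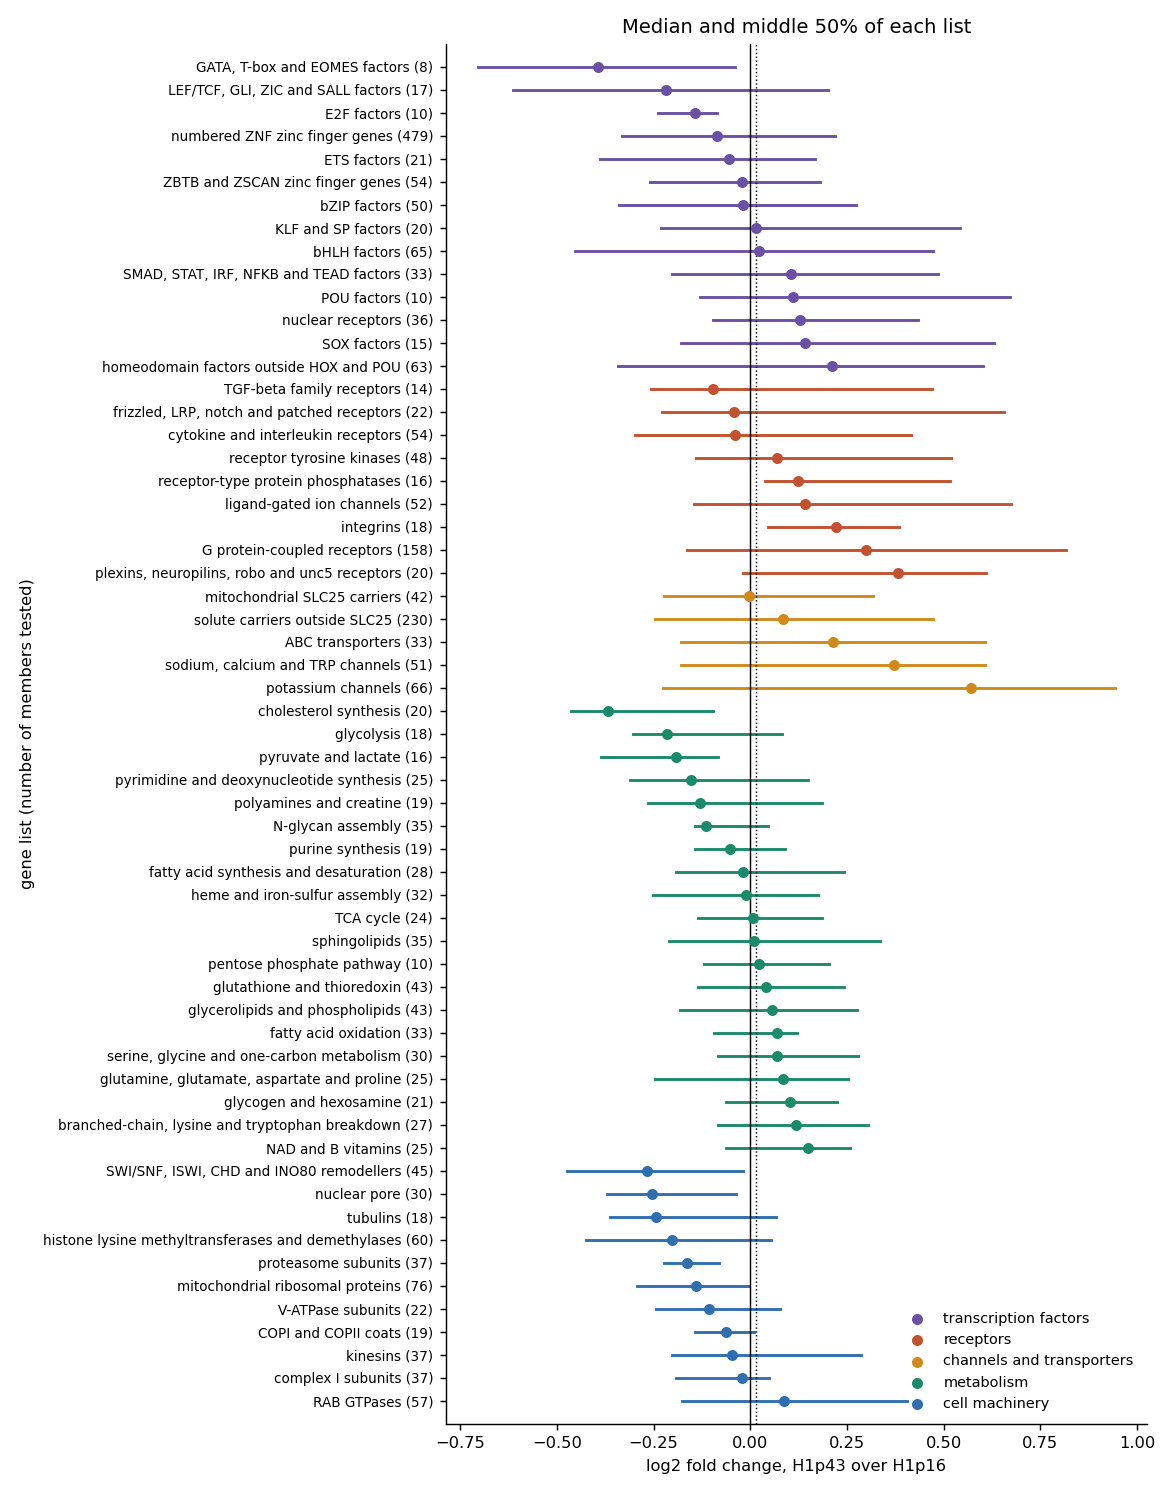
Median (point) and middle 50% (line) of the edgeR log2 fold change, H1p43 over H1p16, of the tested members of each gene list, coloured by class, with the number tested in brackets; the dotted line is the median of all tested genes (0.01). Potassium channels have the highest median (0.57), and most machinery lists lie below 0.

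Metabolic genes were evenly divided as a class, with 193 of 525 tested higher and 206 lower and a median of -0.004. On the TPM scale 49.6% of 504 were higher and 25.4% lower, at a median of 0.09. Single pathways were less even. In glycolysis 4 of 18 were higher and 12 lower (6 and 11 on the TPM scale). The glycolysis list had a median level of 140 TPM, and its shares (22.2% and 66.7%) were close to those of its level. From 100 to 500 TPM, 23.1% of metabolic genes were higher and 63.9% lower, against 18.4% and 62.2% of all genes. Among genes of pyruvate and lactate 3 of 16 were higher and 13 lower. LDHA, which makes lactate from pyruvate, stood at 499.5, 515 and 522 TPM in H1p16 and 352, 353 and 361 TPM in H1p43. HK2, a hexokinase, stood at 39.8, 38.8 and 39.4 TPM in H1p16 and 29.4, 29.6 and 29.4 TPM in H1p43. PKM2, the pyruvate kinase gene, stood at 1336, 1311 and 1296 TPM in H1p16 and 1046, 1030.3 and 1042 TPM in H1p43. All 3 were lower in every H1p43 library (-0.64 ± 0.02, -0.53 ± 0.03 and -0.45 ± 0.02), as was ALDOA (-0.35). The neuronal enolase ENO2 went the other way, from 57.9, 56.1 and 59.4 TPM in H1p16 to 92.95, 97.4 and 95.2 TPM in H1p43 (0.61 ± 0.03). PDK1, the kinase that holds back pyruvate entry to mitochondria, fell (-0.45).

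In the TCA cycle 10 of 24 were higher and 10 lower (15 and 6 on the TPM scale). PCK2, the mitochondrial enzyme that turns oxaloacetate into phosphoenolpyruvate, stood at 77.3, 77.02 and 74 TPM in H1p16 and 153.8, 146.1 and 150.8 TPM in H1p43 (0.87 ± 0.03). IDH2 rose by 0.35. Of complex I subunits 5 of 37 were higher and 15 lower, and 13 were constant; on the TPM scale 18 were higher and 10 lower. NDUFA9 fell furthest among those that met the rule for named genes (-0.47).

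Among genes of serine, methionine and amino acid supply, single members moved far. MAT2A makes S-adenosylmethionine, the methyl donor, in most cells, and MAT1A does so in liver. MAT2A stood at 475, 485 and 496 TPM in H1p16 and 220.3, 219 and 219.5 TPM in H1p43. MAT1A stood at 2.05, 1.99 and 1.87 TPM in H1p16 and 5.32, 5.29 and 5.12 TPM in H1p43. The changes were -1.25 ± 0.02 and 1.30 ± 0.09; even so, MAT2A remained far above MAT1A in TPM in both groups. CTH, which makes cysteine, stood at 19.5, 20.2 and 20.2 TPM in H1p16 and 37.2, 36.3 and 37.3 TPM in H1p43. PSAT1 and PHGDH, enzymes of serine synthesis, rose by 0.30 and 0.29. Asparagine synthetase ASNS stood at 164.1, 166.8 and 176 TPM in H1p16 and 285, 281 and 279.6 TPM in H1p43, and PYCR1, which makes proline, at 134.4, 130.6 and 125.5 TPM in H1p16 and 204, 205 and 202 TPM in H1p43. The changes were 0.78 ± 0.04 for CTH, 0.64 ± 0.03 for ASNS and 0.54 ± 0.03 for PYCR1. ASNS, PSAT1, PHGDH, CTH, PYCR1, PCK2 and SLC3A2 are known targets of ATF4. All of them are genes named here as higher, so they do not stand for the targets of ATF4 as a set. Of the bZIP genes ATF4 rose and ATF5 fell, as given above. The part of either in these changes was not tested. Over the list of serine, glycine and one-carbon genes 13 of 30 were higher and 10 lower (18 and 5 on the TPM scale), at a median of 0.07. Of the 30, 7 were constant (23.3%), at a median level of 70.4 TPM. Of all genes 13.6% were constant from 20 to 100 TPM and 21.7% from 100 to 500 TPM. The middle 50% of the list's changes lay between -0.08 and 0.28. For all genes from 20 to 100 TPM it lay between -0.29 and 0.13. These differences were not tested. Among genes that break down branched-chain amino acids, lysine and tryptophan 14 of 27 were higher and 5 lower (17 and 3 on the TPM scale); AASS, the first enzyme of lysine breakdown and abundant here, went from 391, 392 and 400.3 TPM in H1p16 to 273, 277 and 272 TPM in H1p43.

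Nucleotide and polyamine synthesis had more genes lower than higher in edgeR, but so did genes of their level. From 20 to 100 TPM, the range of these lists' median levels, 29.3% of all genes were higher and 49.1% lower. The shares were 28% and 52% for pyrimidine and deoxynucleotide genes and 31.6% and 42.1% for polyamine and creatine genes. Of purine genes 5 of 19 were higher and 8 lower (8 and 3 on the TPM scale). RRM2, the regulated subunit of ribonucleotide reductase, fell to 105.5, 105.1 and 105.7 TPM in H1p43 from 201, 203 and 203 TPM in H1p16 (-1.05 ± 0.02), while RRM2B, its p53-induced counterpart, rose (0.43 ± 0.03). PNP (-0.55) and CTPS (-0.54) fell and ADA (0.69) rose. Over pyrimidine and deoxynucleotide genes 7 of 25 were higher and 13 lower; on the TPM scale 10 of 24 lay in each direction. Of polyamine and creatine genes 6 of 19 were higher and 8 lower. ODC1, the first enzyme of polyamine synthesis, stood at 170.8, 172.3 and 170.4 TPM in H1p16 and 119.2, 121.6 and 122.6 TPM in H1p43. AMD1, which supplies the aminopropyl group from the product of MAT2A, stood at 256, 261 and 268 TPM in H1p16 and 188, 192 and 189.8 TPM in H1p43. AZIN1, an ODC1-sparing protein, stood at 257, 265 and 279 TPM in H1p16 and 194, 197 and 199 TPM in H1p43. They fell by similar amounts (-0.61 ± 0.03, -0.57 ± 0.02 and -0.54 ± 0.03), while OAZ1, the antizyme that marks ODC1 for destruction, rose (0.15), and so did GATM of creatine synthesis (0.68).

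Lipid genes changed by branch. Of the cholesterol pathway 2 of 20 tested were higher and 16 lower, at a median of -0.37. SQLE, the squalene epoxidase, stood at 162.7, 162.97 and 166.2 TPM in H1p16 and 116.1, 111.98 and 114.9 TPM in H1p43, a log2 fold change of -0.63 ± 0.02, without overlap between groups. HSD17B7 rose (0.29). In glycerolipid synthesis LPIN1, a phosphatidate phosphatase, went from 3.02, 3.21 and 3.26 TPM in H1p16 to 8.82, 8.23 and 8.26 TPM in H1p43 (1.30 ± 0.06), while GPAM, the first acyltransferase, fell (-0.75 ± 0.05). In fatty acid oxidation 13 of 33 were higher and 8 lower (20 and 6 on the TPM scale); CRAT (0.78) and ACAD10 (0.66) rose, and CPT1A, the entry step, fell (-0.57). In fatty acid synthesis 11 of 28 were higher and 9 lower; the desaturases SCD (-0.25) and SCD5 (-0.58) fell, and ELOVL7 (0.68) and ACSS2 (0.49) rose.

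Sugar modification and redox genes gave opposed pairs. OGT attaches N-acetylglucosamine to proteins and MGEA5 removes it. OGT stood at 42.2, 42.7 and 44.3 TPM in H1p16 and 70.9, 70.7 and 72.4 TPM in H1p43. MGEA5 stood at 125.6, 128.99 and 129.8 TPM in H1p16 and 97.1, 98.4 and 99.6 TPM in H1p43. Each H1p43 library had more of the former and less of the latter than each H1p16 library (0.62 ± 0.03 and -0.49 ± 0.02). PMM2, which supplies mannose for N-glycans, fell (-0.84 ± 0.03). Of glutathione and thioredoxin genes 17 of 43 were higher and 16 lower (24 and 5 on the TPM scale). Catalase, CAT, rose (0.79 ± 0.06), with TXNRD3 (1.08) and GLRX (0.57), and GCLC, the limiting enzyme of glutathione synthesis, fell (-0.51) with PRDX6 (-0.30). HMOX1, an inducible heme oxygenase, stood at 84.1, 87.02 and 85.1 TPM in H1p16 and 46.2, 43.4 and 44.8 TPM in H1p43 (-1.04 ± 0.04). Of genes for NAD and B vitamins 13 of 25 were higher and 4 lower. The highest adjusted p among the metabolic genes named with a value was 3.5e-05 for HSD17B7 in edgeR's quasi-likelihood test.

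**Figure D5:**
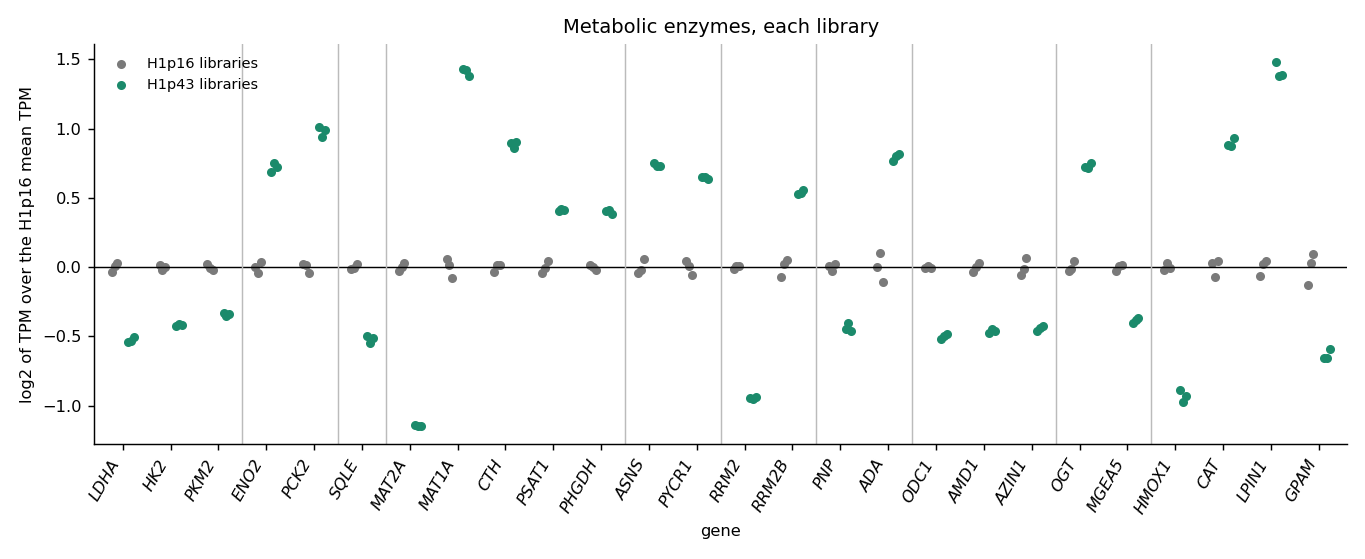
TPM of each of the 6 libraries, as log2 of its ratio to the H1p16 mean of the gene, for 26 enzymes grouped by pathway between the lines; grey points are H1p16 libraries and green points H1p43 libraries. MAT2A lies lowest, LPIN1 and MAT1A highest, and OGT and MGEA5 lie on opposite sides of 0.

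The machinery of the cell leaned lower, as did abundant genes in general. From 20 to 100 TPM, 15.7% of machinery genes were higher and 64.4% lower, against 29.3% and 49.1% of all genes of that level. From 100 to 500 TPM, the shares were 12.3% and 63.1%, against 18.4% and 62.2%. These differences were not tested. Over 437 tested genes of 11 lists, 86 were higher and 244 lower, at a median of -0.13; on the TPM scale 32.4% of 426 were higher and 39.9% lower. Proteasome subunits had 1 of 37 higher and 27 lower (median -0.16), with PSMD12 at -0.55, but on the TPM scale 5 were higher and 15 lower. Mitochondrial ribosomal proteins had 10 of 76 higher and 48 lower (median -0.14), and 22 higher and 32 lower on the TPM scale. Of them 17.1% were constant, at a median level of 93.3 TPM. Of all genes 13.6% were constant from 20 to 100 TPM and 21.7% from 100 to 500 TPM. MRPL1 went from 66.2, 70.8 and 75.7 TPM in H1p16 to 37.5, 37.04 and 39.8 TPM in H1p43. Nuclear pore genes had 3 of 30 higher and 21 lower (7 and 19 on the TPM scale), at a median of -0.25. NUP153 of the nuclear basket stood at 90.95, 91.6 and 93.8 TPM in H1p16 and 62.5, 62.7 and 64.95 TPM in H1p43, and NUP210, a pore membrane protein, rose (0.17). Tubulins had 4 of 18 higher and 12 lower (5 and 9 on the TPM scale); TUBB2A fell (-0.66) and TUBB4A rose (0.45), though reads may be shared between tubulin copies. RAB GTPases were the list with more genes higher, 26 of 57 against 17 lower (32 and 12 on the TPM scale). Their median level was lower, at 18.8 TPM. The shares (45.6% and 29.8%) were close to the 43.6% and 30.2% of all genes from 5 to 20 TPM. The synaptic RAB3C lay at 0.82 and RAB15 at -0.65.

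Chromatin regulators also leaned lower. Of SWI/SNF, ISWI, CHD and INO80 remodellers 5 of 45 were higher and 31 lower, at a median of -0.27, and on the TPM scale 9 of 44 were higher and 26 lower. The SWI/SNF subunits DPF1 and SMARCD3 changed most among named members, in opposite directions. DPF1 stood at 25.4, 21.4 and 19.4 TPM in H1p16 and 7.40, 8.02 and 7.79 TPM in H1p43. SMARCD3 stood at 1.8, 2.85 and 2.41 TPM in H1p16 and 5.81, 5.34 and 5.48 TPM in H1p43. ARID1A, the large DNA-binding subunit, stood at 75.8, 70.8 and 68.05 TPM in H1p16 and 46.6, 45.2 and 45.1 TPM in H1p43. The changes were -1.61 ± 0.08, 1.09 ± 0.14 and -0.76 ± 0.03, with SRCAP at -0.79 and CHD7, higher, at 0.21. Of histone lysine methyltransferases and demethylases 13 of 60 were higher and 39 lower, at a median of -0.20. NSD1, which methylates histone H3 at lysine residues, stood at 63.8, 63.9 and 64.9 TPM in H1p16 and 37.7, 38.2 and 38.1 TPM in H1p43. KDM2B, a demethylase that brings Polycomb to CpG islands, stood at 93.5, 88.6 and 89.7 TPM in H1p16 and 55.5, 55.9 and 54.1 TPM in H1p43. WHSC1, a relative of NSD1, stood at 40.6, 39.6 and 39.1 TPM in H1p16 and 61.8, 62.1 and 62.5 TPM in H1p43. WHSC1 thus rose (0.54 ± 0.02) where NSD1 (-0.86 ± 0.02) and KDM2B (-0.83 ± 0.03) fell. The H3K4 methyltransferase SETD1B fell (-1.06), and the demethylases KDM6A (0.41) and KDM1A (0.11) rose. The highest adjusted p among the machinery and chromatin genes named with a value was 6.7e-05 for KDM1A in edgeR's quasi-likelihood test.

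Markers of other cell types were near the floor or moved without a shared direction. Of 19 mesoderm and endoderm markers 6 were tested; the list summed to 86.6 to 88 TPM in H1p16 and 55.3 to 55.6 TPM in H1p43, most of it KDR, and AFP also fell (-1.10 ± 0.13). SOX17 was at 0 in all libraries, and T, GATA4 and GATA6 were at or below 0.20 TPM. Of 16 trophoblast and amnion markers 6 were tested, with sums of 729.7 to 752 and 604 to 626 TPM, nearly all of it KRT18, which stem cells also express (-0.39 ± 0.02); KRT7 rose (0.61), and CDX2 was at most 0.25 TPM. Of 14 fibroblast and stroma markers 10 were tested, 5 were higher and 4 lower (6 and 2 on the TPM scale), with sums of 939.5 to 982 and 1004 to 1037 TPM. COL1A2, a collagen chain, stood at 30.2, 28.2 and 29.4 TPM in H1p16 and 52.5, 48.9 and 50.6 TPM in H1p43. TAGLN, an actin-binding protein of contractile cells, stood at 213, 213 and 209.8 TPM in H1p16 and 318, 300.0 and 303 TPM in H1p43. These rose (0.68 ± 0.03 and 0.42 ± 0.03) and so did S100A4 (0.68), while THY1, which stem cells share, fell (-0.46); DCN, LUM and FAP, which define fibroblasts, were at 0 in all libraries. Of 12 blood and endothelial markers 7 were tested, with sums of 29.7 to 32.6 and 30.6 to 32.4 TPM; HBB was at 0 throughout and PTPRC was at most 0.09 TPM.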

How the data were processed

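RNA-seq of 6 TruSeq libraries of H1, 3 labelled H1p16 and 3 labelled H1p43, was analysed. The authors deposited expected counts per gene and TPM, which is scaled by transcript length and library total. The tools and build were RSEM 1.2.3, Bowtie 0.12.8, CASAVA 1.8.2 and hg19, per the submitters' processing notes. RSEM divides reads shared by several genes by a model, and the sources used here give no strand setting, so near-identical, overlapping and antisense genes are uncertain.

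Expected counts were rounded to whole numbers, filtered by filterByExpr, TMM-normalized and tested in edgeR 4.0.16 (R 4.3.3) by its quasi-likelihood test, with Benjamini-Hochberg adjustment over 14574 genes and no covariates. The standard error is the fold change divided by the root of its F statistic. The procedure was tested on simulated data. The libraries, 67 gene lists and the naming rule were chosen with earlier results of these data known. The rule took, per list, up to 3 called members in each direction by size, without overlap and with the higher group's mean at 5 TPM or more, and the most abundant member. It added further members as examples of the spread, the 3 most abundant genes per size class, the 10 most abundant genes, constant genes, and reference and marker genes; the text names fewer, and some genes are not reported here.

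Results were recomputed with RLE size factors, with DESeq2 1.42.0, without the filter, with limma 3.58.1 on log2(TPM + 1) and log2(TPM + 0.1), with other bands for constant genes, with the replicate number as a block and without each library in turn. Promoter sequences are RefSeq's on GRCh38.p14, matched by gene symbol; no gene coordinates of hg19 were used.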

Additional observations from a re-analysis of the deposited data

How the results depend on the processing

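Of 10460 genes called in edgeR, 9229 were called in the same direction by DESeq2 and 8128 with limma on log2(TPM + 1), which called 21 in the opposite direction. The number of genes changed at least 2-fold moved from 1061 to 333 on log2(TPM + 1), 338 without its filter and 706 on log2(TPM + 0.1). The share of constant genes, as a percent of the genes each setting tested, moved from 8.4% to 0.741% with a band of 5%, 28.5% with one of 20%, 4.7% in DESeq2 and 14.5% on log2(TPM + 1) without a filter. Omitting 1 library at a time gave 9828 to 10470 called genes, 1079 to 1156 changed at least 2-fold and 6.15% to 8.46% constant. For the 3 log2 TPM settings RPL7A lay at 0.081, RPLP1 at 0.096 and RPS25 at 0.089, called on the other side of 0. POU5F1 was not called on log2(TPM + 1) without a filter (-0.06, adjusted p = 0.1 in limma). Over 218 named genes and all alternatives, 2803 of 2834 values kept direction and side of the threshold, and the exceptions were 8 genes near 0. Many of these genes were named because they were called with large changes in these same libraries. Their agreement was thus largely set by that choice and does not stand for all called genes. No list's count of calls moved by more than 1.5 times when a library was omitted.

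Replicate numbers did not pair the libraries: same-numbered libraries had correlations of deviations of 0.04, 0.04 and 0.01. With the replicate block 10463 genes were called, 1058 changed at least 2-fold and 8.65% were constant. Not every library correlated best with its own number: H1p16 replicate 3 did so with H1p43 replicate 2 (0.0165). With 3 libraries a group of unknown origin, small changes passed the test, and below about 1 TPM the median standard error was 0.28 on the log2 scale, so changes there were measured least precisely.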

Other observations

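Lists outside the comparisons above were mixed. Of kinesins, motors that move cargo along microtubules, 12 of 37 tested were higher and 17 lower (12 and 8 on the TPM scale), and the direction of the median changed with the scale (-0.05 in edgeR, 0.01 with limma on log2(TPM + 1)). KIF17, a motor of dendrites and cilia, stood at 5.39, 4.99 and 5.23 TPM in H1p16 and 9.33, 10.1 and 9.14 TPM in H1p43, a log2 fold change of 0.76 ± 0.06. Of the COPI and COPII coats of the early secretory pathway 3 of 19 were higher and 6 lower (7 and 5 on the TPM scale), and 9 lay within 10%. SEC23A (0.19 ± 0.03) and SEC31A (-0.36 ± 0.03), both of the COPII coat, changed in opposite directions without overlap between groups. Of V-ATPase subunits, which acidify lysosomes, 4 of 22 were higher and 11 lower, but 8 were higher and 6 lower on the TPM scale. In N-glycan assembly 8 of 35 were higher and 18 lower, against 11 and 6 on log2(TPM + 1). Of mitochondrial carriers 15 of 42 were higher and 12 lower (18 and 8 on the TPM scale); SLC25A37, which imports iron, stood at 15.9, 14.2 and 13.7 TPM in H1p16 and 25.5, 25.1 and 26.2 TPM in H1p43 (0.71 ± 0.06), while SLC25A38, a glycine carrier of the same heme pathway, stood at 55.6, 59.1 and 57.4 TPM in H1p16 and 44.7, 43.7 and 44.97 TPM in H1p43 (-0.48 ± 0.04).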
